A study of Mus musculus with 6 samples.

Results

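The EGR, NR4A and IER genes are immediate early genes outside the AP-1 family, and the 10 studied here were taken by name from the count table: Egr1, Egr2, Egr3, Nr4a1, Nr4a2, Nr4a3, Ier2, Ier3, Ier5 and Ier5l. They are 10 of 55376 genes in the table and 10 of the 18054 genes tested, since each of them passed the filter on low counts. The rule names the genes and uses no value. All libraries came from muscle stem cells of C57BL/6 mice aged 3 months, purified by fluorescence-activated cell sorting and sequenced after SMART-seq2, which amplifies full-length cDNA from small amounts of RNA. There were 3 groups of 2 libraries. CPEB4 RIP held RNA recovered with an antibody against CPEB4, IgG RIP held RNA recovered with a nonspecific antibody, and input held total RNA. RIP is RNA immunoprecipitation, in which RNA is recovered together with the protein that binds it, and CPEB4 is a protein that binds the cytoplasmic polyadenylation element of messages and regulates their translation. The labels name no treatment and no engineered genotype in any group, and they do not say how many animals each library came from.

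Immediate early genes are transcribed within minutes of a signal, without new protein synthesis, and their messages are short-lived. Growth factors, stress and calcium reach them mainly through serum response factor with its ETS partners and through CREB. In muscle stem cells they are known to be induced by injury and by the dissociation of the tissue. EGR proteins are zinc finger transcription factors, NR4A proteins are orphan nuclear receptors that act without a known hormone, and IER proteins are small products of which several bind protein phosphatases or enter the nucleus.

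The promoters of the NR4A genes shared a feature that the choice of genes did not use, and the sites are shown for that reason. RefSeq windows of 300 bases, from 250 bases before to 50 bases after an annotated transcript start (GRCm38.p6, the mm10 assembly), were found for 7 of the 10 genes. Windows of Egr1, Egr3 and Ier2 were not used here. The CREB half-site TGACG, read on both strands, occurred 4 times in each of the windows of Nr4a1, Nr4a2 and Nr4a3, and 0 times in those of Ier3, Ier5 and Ier5l. Of 32851 windows of all genes, 20.8% held the half-site at least once and 0.231% held it at least 4 times. Overlapping windows of Egr2 held 2 half-sites and also a CArG box, the sequence bound by serum response factor, which 1.63% of all windows held. The full site TGACGTCA, found in 1.79% of all windows, was in none of the windows of the 7 genes. In the following 30-base stretches, 5′ to 3′ on the strand of the gene, the capitals mark the half-site (CGTCA is TGACG on the other strand) or, in the last, the CArG box. Only the site that a stretch was chosen for is in capitals, and that of Nr4a3 holds another of its 4 half-sites in lower case. They lie on the plus strand at chr15:101266794-101266823, on the minus strand at chr2:57124130-57124159, and on the plus strand at chr4:48045088-48045117, chr10:67537802-67537831 and chr10:67537787-67537816.
Nr4a1: cccctctccatgCGTCAcggagcgcttaag
Nr4a2: gccggctgcacgCGTCAcggagcccggccg
Nr4a3: atgtcgtcacatTGACGtctcgcattccag
Egr2: tatgggcagcgaCGTCAcgggtattgaaga
Egr2: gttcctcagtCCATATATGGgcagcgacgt
A match describes letters in these windows and is not a measured binding site.

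Total counts were 12679621 and 20843042 in CPEB4 RIP, 9018323 and 14225502 with IgG, and 16314360 and 12426827 in input. The IgG RIP libraries stood apart from each other, with a Pearson r of log2 CPM across 18054 genes of 0.873, against 0.981 for the CPEB4 RIP pair and 0.975 for the input pair. CPM, the usual scaled count, is a count relative to the library total after scaling by TMM, trimmed means of log ratios. Between CPEB4 RIP and IgG RIP 7710 genes were called without IgG RIP replicate 1 and 7405 without replicate 2, against 1482 with both. Without CPEB4 RIP replicate 1 it was 204 genes and without replicate 2 it was 0. Between CPEB4 RIP and input, too, far more genes were called without IgG RIP replicate 1 or 2 than with both. A call gained in those fits was common over all genes. Of 9 markers of muscle stem cells 1 was called lower over IgG, and 1 higher and 3 lower over input, and their sum was 62563 to 68422 CPM in CPEB4 RIP, 60845 to 62231 with IgG and 46348 to 47761 in input. Pax7, the defining transcription factor of these cells, stood at 290 and 265 CPM in CPEB4 RIP, 189 and 282 with IgG and 151 and 174 in input. Vcam1, another of these markers, went the other way over input, with 691 and 751 CPM in CPEB4 RIP. It had 1332 and 1301 CPM with IgG and 1643 and 1614 in input. Erythroid markers summed to 327 to 657 CPM in CPEB4 RIP, 86.8 to 147 with IgG and 109 to 179 in input, with none of 5 genes at 0 in all libraries and 3 of 5 called higher over each background. The summed fibro-adipogenic markers, also with none of 6 at 0 in all libraries and with 1 of 6 called higher over IgG and 3 of 6 over input, ranged from 1526 to 2010 CPM in CPEB4 RIP, 956 to 1366 with IgG and 643 to 845 in input. Over IgG, 3 of 6 myofibre, 1 of 6 endothelial and 1 of 5 tested leukocyte markers were also called higher. The part of these cells in the results below was not tested. In bulk libraries, fewer cells with a message and less of the message per cell cannot be told apart. The design text calls the CPEB4 RIP libraries biological replicates but does not name their animals, and it says nothing of this kind for the other groups, so the p-values rest on the spread between these libraries, part of which may be technical.

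Egr1 and Ier2 were the most abundant of the 10 messages per length in every group. Levels of different genes were compared only per length, in the FPKM that the authors deposited (fragments per length of the gene model and per library total). Egr1 had 621 and 580 FPKM in CPEB4 RIP, 524 and 481 with IgG, and 476 and 283 in input. Ier2 had 361 and 350 FPKM in CPEB4 RIP, 595 and 592 with IgG, and 562 and 403 in input. The order of these leading genes thus differed between groups: Egr1 lay above Ier2 in both CPEB4 RIP libraries, and Ier2 lay above Egr1 in both IgG RIP libraries and, compared within each library, in both input libraries. Their ranges over the input libraries overlapped, with both genes lower in input replicate 2. In CPEB4 RIP the order by mean FPKM went on with Ier3 (57.2), Ier5 (37.7), Nr4a1 (34.6), Egr2 (16.1), Nr4a2 (12.1), Nr4a3 (10.7), Egr3 (4.63) and Ier5l (0.658). Of these neighbours only Ier5 and Nr4a1 had overlapping ranges. Nr4a1 came next after Ier2 and Egr1 in both backgrounds, at 61.1 ± 4.36 FPKM with IgG and 50.4 ± 17.0 in input (SD, n = 2 for each group). The neighbours Egr2 and Ier5 overlapped in IgG RIP, and Ier3 and Egr2 overlapped in input. Egr3 and Ier5l were lowest in every group.

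**Figure D1:**
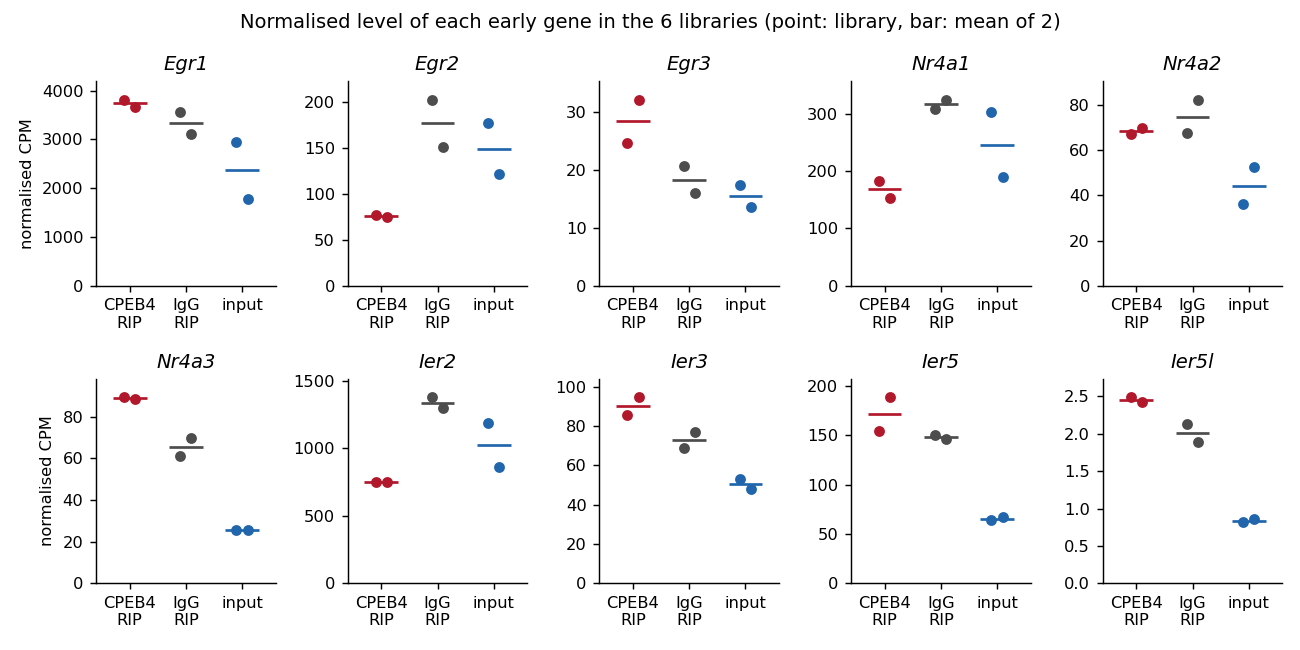
Normalised CPM (linear axis from 0) of the 10 genes in each of the 6 libraries, with points for libraries and bars for the mean of 2. Egr2, Nr4a1 and Ier2 lie below both backgrounds in CPEB4 RIP, with Egr2 at 77.1 and 74.6 CPM against 202 and 151 with IgG. Egr1, Egr3, Nr4a3, Ier3, Ier5 and Ier5l lie above both, and Nr4a2 overlaps IgG RIP.

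The comparison named in the design text, CPEB4 RIP with IgG RIP, asks which messages the CPEB4 antibody recovered beyond a nonspecific one. None of the 10 early genes rose over IgG, Egr2 and Ier2 fell, and 8 did not pass (edgeR's quasi-likelihood test, adjusted p under 0.05). DESeq2's Wald test called 0 higher and 3 lower, with Nr4a1 (adjusted p = 8.20e-04) beside Egr2 and Ier2. Over all 18054 genes that test called 2892, more than edgeR's 1482, with 1541 higher and 1351 lower. In edgeR 5 of the 10 early genes had an unadjusted p under 0.05, of which 2 were positive. Over all 18054 genes 8.21% were called, 4.79% higher and 3.42% lower, and 26.8% had an unadjusted p under 0.05. Scaled by library size alone, 46.8% of the calls over all genes were higher, against 58.3% with TMM. The groups of libraries did not overlap for 6 genes above IgG and 3 below it, against backgrounds of 29.4% and 25.5% of all genes. The median log2 fold change of the 10 genes was 0.19, beside -0.07 over all genes tested.

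Comparing CPEB4 RIP with input asks how the recovered RNA differed from the RNA of the cells. Nr4a3, Ier3 and Ier5 rose, Egr2 fell, and 6 genes did not pass. Over all genes 12.7% were called, 8.0% higher and 4.70% lower. All 10 had an unadjusted p under 0.05, against a background of 28.1%. All 10 also had groups of libraries that did not overlap, 7 higher and 3 lower, where 34.4% of all genes lay higher and 37.6% lower in this way. The median log2 fold change was 0.75, beside -0.06 over all genes. Scaling by library size alone moved the median of all genes over input to -0.27, and 43.7% of calls were then higher, against 63.0% with TMM. Both comparisons use the same CPEB4 RIP libraries and are not independent of each other.

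IgG RIP with input shows what a nonspecific antibody recovered. In edgeR 0 of the 10 genes passed, against 0.00% of all genes, and 4 had an unadjusted p under 0.05, against 14.1% of all genes. DESeq2's Wald test called 3 of the 10 higher and 706 genes in all. All 10 fitted values were positive, with a median of 0.51 beside 0.05 over all genes, and 8 genes had groups that did not overlap, all higher, where 21.4% of all genes lay higher and 20.7% lower in this way. The values of Nr4a3, Ier3 and Ier5 over input therefore stand beside those of IgG RIP in the paragraphs on each family.

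**Figure D2:**
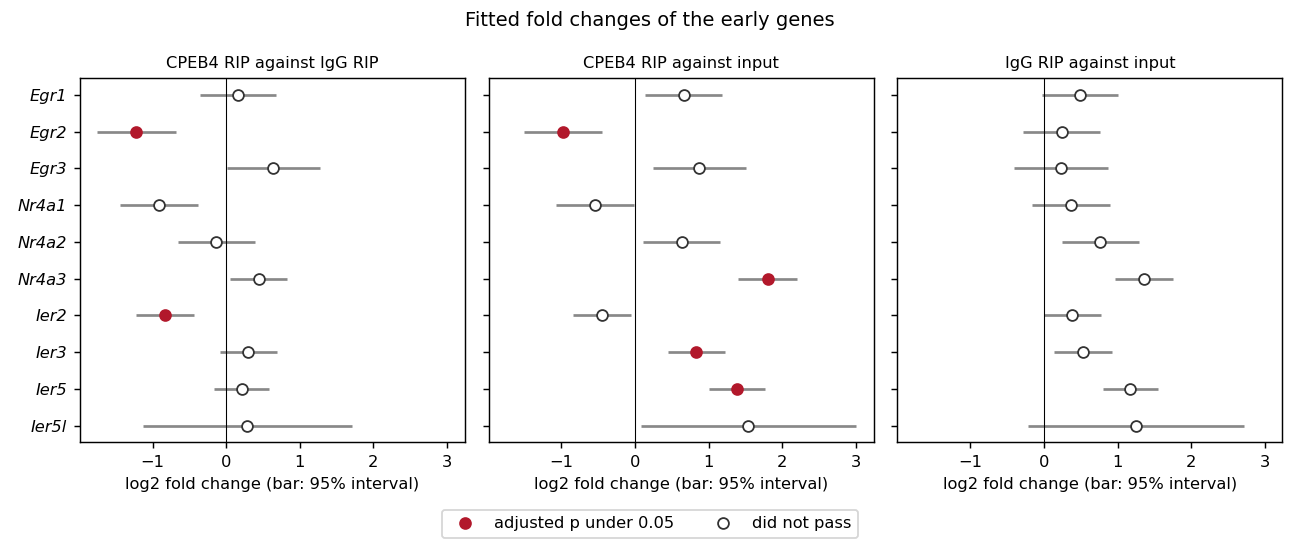
Fitted log2 fold changes of the 10 genes (points) with 95% intervals (bars) in the 3 comparisons; filled points have an adjusted p under 0.05. Over IgG RIP only Egr2 (-1.22) and Ier2 (-0.83) passed, over input Egr2 (-0.97), Nr4a3 (1.80), Ier3 (0.83) and Ier5 (1.38) did, and in IgG RIP against input none did.

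Within the EGR family, Egr2 fell against both backgrounds, and Egr1 and Egr3 passed against neither. Egr2, also called Krox20 and best known for its role in myelinating Schwann cells, lies on chromosome 10, 67534469 to 67542188. It stood at 77.1 and 74.6 CPM in CPEB4 RIP, against 202 and 151 with IgG and 177 and 121 in input. Both CPEB4 RIP libraries were close together and well below all 4 background libraries. The log2 fold change was -1.22 over IgG RIP (SE 0.23, adjusted p = 0.0228, edgeR), which is 2.33-fold lower, and -0.97 over input (SE 0.23, adjusted p = 0.0316). Over IgG it no longer passed without CPEB4 RIP replicate 1 (-1.04, adjusted p = 0.213) or replicate 2 (-1.14, 0.271) and with an offset for gene length (-1.27, 0.0909), and the value was -0.81 (0.00118) without IgG RIP replicate 1. Over input it was lost without either CPEB4 RIP library (-0.89 and -0.88), without input replicate 1 (-0.66, 0.246) or 2 (-1.20, 0.0505) and with the length offset (-0.77, 0.132). The gene span of Egr2 overlaps the predicted gene Gm32255, and strand use in counting was not given in the sources used here, and reads of the pair cannot be told apart without it.

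Egr1, the best known of the family and a mediator of growth factor responses, lies on chromosome 18, 34861207 to 34864956. It stood at 3816 and 3660 CPM in CPEB4 RIP, against 3563 and 3105 with IgG and 2949 and 1784 in input. The CPEB4 RIP libraries were above each of the others, but by a margin smaller than the spread within input. The log2 fold change was 0.17 over IgG RIP, with a 95% interval of -0.35 to 0.68 and an adjusted p of 0.666 (edgeR), and it was 0.45 (0.0870) without IgG RIP replicate 1. Over input it was 0.66 (interval 0.14 to 1.18, adjusted p = 0.0996, edgeR). This value passed in 7 of 18 alternatives, among them DESeq2's Wald test (0.61, adjusted p = 0.0341). In edgeR it passed with only the 4 libraries compared (0.62, 0.0252) and with no low-count filter (0.77, 7.37e-04). It was 1.08 without input replicate 1 and 0.36 without input replicate 2. Without IgG RIP replicate 1 it was 0.71 and without replicate 2 it was 0.72.

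Egr3, known for its role in muscle spindle development, lies on chromosome 14, 70077317 to 70082613, and was far less abundant. It had 24.7 and 32.1 CPM in CPEB4 RIP, against 20.6 and 15.9 with IgG and 17.3 and 13.7 in input. The CPEB4 RIP libraries lay above those of both backgrounds, although they differed from each other by a ratio of 1.30. IgG RIP and input overlapped. The log2 fold change was 0.64 over IgG (SE 0.27, adjusted p = 0.181, edgeR) and 0.87 over input (SE 0.27, adjusted p = 0.0785). Without IgG RIP replicate 1 the value over IgG was 1.02 (adjusted p = 0.00213) and without replicate 2 it was 0.61 (0.0673), while without CPEB4 RIP replicate 1 it was 1.02 (0.30). Over input the values were 0.93 (3.20e-04) and 0.94 (2.98e-04) without these libraries.

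Among the NR4A receptors, Nr4a3 rose over input, and Nr4a1 and Nr4a2 passed against neither background. Nr4a3, also called NOR-1 and known in muscle as a regulator of oxidative metabolism, lies on chromosome 4, 48045078 to 48086447. It had 89.3 and 88.3 CPM in CPEB4 RIP, 61.3 and 69.6 with IgG, and 25.5 and 25.5 in input. The 3 groups formed separate steps, with the replicates of each close together. Over input the log2 fold change was 1.80 (SE 0.17, adjusted p = 0.00201, edgeR), 3.49-fold, and higher than that of 96.8% of genes or equal to it. It passed in all 18 alternatives, at 1.53 to 2.08. IgG RIP itself stood 1.36 above input (SE 0.17, adjusted p = 0.109), and passed without IgG RIP replicate 1 (1.33, 1.01e-06) or 2 (1.19, 1.15e-04) but in none of the fits without another library. Over IgG RIP the difference was 0.44 (SE 0.17, adjusted p = 0.142), and it passed without IgG RIP replicate 1 (0.53, 0.0420) or replicate 2 (0.67, 0.0127).

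Nr4a1, known as Nur77 and a regulator of muscle metabolism and cell survival, lies on chromosome 15, 101253902 to 101274795. It had 183 and 154 CPM in CPEB4 RIP, against 309 and 325 with IgG and 302 and 189 in input. Both CPEB4 RIP values were below every background value, with input replicate 2 only just above them. Against IgG RIP the log2 fold change was -0.91 (SE 0.23, adjusted p = 0.0523, edgeR), and it passed in 11 of 18 alternatives, at -0.77 (0.00229) without IgG RIP replicate 1, -0.74 (0.00448) without replicate 2, -0.78 (0.0394) without input replicate 1 and -0.77 (0.0402) without input replicate 2. Over input it was -0.55 (SE 0.23, adjusted p = 0.168), and it passed without IgG RIP replicate 1 (-0.50, 0.0185) or 2 (-0.49, 0.0219). Without input replicate 1 it was -0.15 (0.769) and without input replicate 2 it was -0.83 (0.0585).

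Nr4a2, known as Nurr1 from its role in dopamine neurons, lies on chromosome 2, 57106830 to 57124003. It had 67.2 and 69.7 CPM in CPEB4 RIP, 67.5 and 82.5 with IgG, and 36.0 and 52.5 in input. CPEB4 RIP and IgG RIP overlapped, and both lay above input. The log2 fold change was -0.13 over IgG (interval -0.65 to 0.39, adjusted p = 0.736, edgeR) and 0.63 over input (interval 0.11 to 1.15, adjusted p = 0.113). Over IgG the sign was positive in 4 of the 6 fits that left out a library, at 0.11 without CPEB4 RIP replicate 1, 0.16 without IgG RIP replicate 2, 0.00 without input replicate 1 and 0.02 without input replicate 2. The value over input passed without IgG RIP replicate 1 (0.69, 0.00124) or 2 (0.70, 0.00133), and stood at 0.40 (0.436) without input replicate 1 and at 0.94 (0.0779) without input replicate 2. Its span overlaps the predicted gene LOC105244150.

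In the IER family, Ier2 fell over IgG RIP, Ier3 and Ier5 rose over input, and Ier5l passed in neither comparison. Ier2, formerly pip92, encodes a nuclear protein induced by growth factors and lies on chromosome 8, 84661331 to 84662852. It had 753 and 751 CPM in CPEB4 RIP, against 1377 and 1300 with IgG and 1184 and 865 in input. The CPEB4 RIP libraries were nearly equal and below all 4 others. Against IgG RIP the log2 fold change was -0.83 (SE 0.17, adjusted p = 0.0290, edgeR), 1.78-fold lower. The gene no longer passed without CPEB4 RIP replicate 1 (-0.62, adjusted p = 0.329) or replicate 2 (-0.78, 0.349), with the length offset (-1.09, 0.0990) and in limma on log2(FPKM + 1) (-0.74, 0.0513). It held without IgG RIP replicate 1 (-0.61, 0.0105) and without replicate 2 (-0.74, 0.00271). Over input the value was -0.45 (SE 0.17, adjusted p = 0.133, edgeR), and -0.39 without IgG RIP replicate 1 or 2. This value passed in 4 of 18 alternatives, among them DESeq2's Wald test (-0.50, adjusted p = 0.0276). In edgeR it passed with only the 4 libraries compared (-0.49, 0.0291) and with a mean count of at least 20 (-0.60, 0.0486). It was -0.18 (0.661) without input replicate 1 and -0.64 (0.0776) without input replicate 2.

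Ier5, which is induced by heat shock and DNA damage and acts on heat shock factor 1, lies on chromosome 1, 155096367 to 155099636. It had 154 and 189 CPM in CPEB4 RIP, 150 and 147 with IgG, and 64.0 and 67.5 in input. CPEB4 RIP replicate 1 lay just above the IgG RIP pair, and both kinds of RIP lay far above input. Over input the log2 fold change was 1.38 (SE 0.16, adjusted p = 0.00348, edgeR), 2.61-fold, and it missed the threshold without CPEB4 RIP replicate 2 (1.30, 0.0677). In IgG RIP it was 1.18 above input (SE 0.16, adjusted p = 0.132), and 1.03 (4.84e-05) and 1.12 (1.39e-04) without IgG RIP replicate 1 and without replicate 2. Over IgG RIP the difference was 0.21, with an interval of -0.16 to 0.58 and an adjusted p of 0.436. It was 0.56 (0.329) without CPEB4 RIP replicate 1 and 0.11 (0.897) without replicate 2.

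Ier3, also called IEX-1, a regulator of cell survival and of ERK signalling, lies on chromosome 17, 35821713 to 35822911. It had 85.3 and 94.5 CPM in CPEB4 RIP, 68.9 and 77.0 with IgG, and 52.9 and 48.0 in input. The groups stood in steps without overlap. IgG RIP itself had a log2 fold change of 0.53 over input (SE 0.17, adjusted p = 0.240, edgeR). Over input the log2 fold change of CPEB4 RIP was 0.83 (SE 0.17, adjusted p = 0.0193, edgeR). It no longer passed without CPEB4 RIP replicate 1 (1.02, 0.0793) or 2 (0.82, 0.250), without input replicate 1 (0.92, 0.0775) or 2 (0.78, 0.112), and with the length offset (0.65, 0.148). Over IgG it was 0.30 (interval -0.09 to 0.69, adjusted p = 0.288), and it passed without IgG RIP replicate 2 (0.52, 0.0494). Without CPEB4 RIP replicate 1 it was 0.59 (0.370).

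Ier5l, a relative of Ier5 of little known function, lies on chromosome 2, 30472631 to 30474199. It was scarce, with 30 and 46 counts in CPEB4 RIP, 20 and 25 with IgG and 15 and 11 in input. In CPM it had 2.49 and 2.42 in CPEB4 RIP, 2.13 and 1.89 with IgG, and 0.816 and 0.859 in input. Its groups did not overlap, but the fitted intervals were wide at this depth, -1.13 to 1.70 around 0.29 over IgG (adjusted p = 0.794, edgeR) and 0.08 to 3.00 around 1.54 over input (adjusted p = 0.160). Over input it passed without IgG RIP replicate 1 (1.60, 0.0124) or 2 (1.60, 0.0136).

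The levels inside each family could also be read within each library, as the ratio of one gene's counts to another's, which does not depend on how libraries are scaled. Each gene was set against the most counted gene of its family, which was Egr1, Nr4a1 or Ier2. These ratios are not per length and serve only to compare libraries, between which a constant factor for gene length cancels. A length effect that differs between libraries would not cancel, and its part in the ratios was not tested. Egr1 had 49.5 and 49.1 counts for each count of Egr2 in CPEB4 RIP, against 17.6 and 20.6 with IgG and 16.7 and 14.7 in input. Nr4a3 had 0.488 and 0.574 counts for each of Nr4a1 in CPEB4 RIP, 0.198 and 0.214 with IgG, and 0.0841 and 0.134 in input. The 3 groups were separate in both ratios, apart by 2.57 times for the mean Nr4a3 ratio in CPEB4 RIP over IgG RIP and by 4.86 times over input. Ier5 had 0.205 and 0.251 counts for each of Ier2 in CPEB4 RIP, 0.109 and 0.113 with IgG, and 0.0540 and 0.0780 in input. Ier3 had 0.113 and 0.126 counts for each of Ier2 in CPEB4 RIP, 0.050 and 0.0592 with IgG, and 0.0447 and 0.0555 in input. Their means in CPEB4 RIP were 2.06 and 2.19 times those with IgG, while only that of Ier5 also parted IgG RIP from input without overlap. The Ier5l to Ier2 ratio was 2.17 times its IgG RIP mean in CPEB4 RIP. For Nr4a2 the ratio to Nr4a1 was 0.367 and 0.453 in CPEB4 RIP, 0.218 and 0.254 with IgG, and 0.119 and 0.277 in input, which overlapped IgG RIP but not CPEB4 RIP. The Egr3 to Egr1 ratio, 0.00647 and 0.00877 in CPEB4 RIP, lay above 0.00578 and 0.00513 with IgG and overlapped 0.00588 and 0.00766 in input. A ratio shows unequal change and not which gene moved. The ratios of Ier3, Ier5 and Ier5l share Ier2 below the line, which itself fell over IgG. How often the ratios of other gene pairs part in this way was not computed. With 2 libraries in each group the smallest two-sided p of an exact permutation test is 0.333, and none was run.

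**Figure D3:**
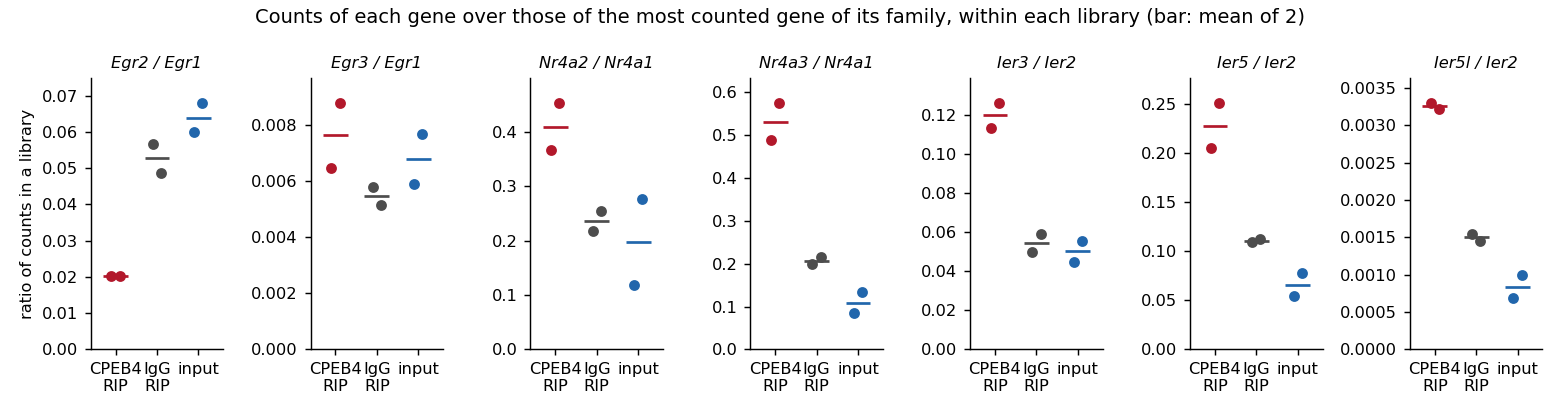
Ratio of counts (linear axis from 0) of each gene to the most counted gene of its family within each of the 6 libraries, with points for libraries and bars for the mean of 2. The ratios of Nr4a2, Nr4a3, Ier3, Ier5 and Ier5l are higher in both CPEB4 RIP libraries than in any other, and that of Egr3 overlaps input. That of Egr2 is lower, at 0.0202 and 0.0204 in CPEB4 RIP against 0.0568 and 0.0486 with IgG and 0.0599 and 0.0680 in input.

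The part of gene length in the fold changes was tested only by the length offset given here. Relative to Egr1, the gene models of Ier2 (0.340) and Ier3 (0.252) were the shortest of the 10 and Nr4a3 (1.34) the longest, from the counts divided by the FPKM. The 3 longest, Nr4a3, Egr1 (1) and Egr3 (0.983), had positive fold changes over IgG, and the next longest, Nr4a2 (0.905), had -0.13. Of the shortest, Ier2 lay below and Ier3 above IgG RIP, and the next shortest, Ier5l (0.598), had 0.29. Egr2 (0.758), Nr4a1 (0.783) and Ier5 (0.731) had fold changes over IgG of -1.22, -0.91 and 0.21. With an offset for length in every library, 0 of 18054 genes passed over IgG RIP and 638 passed over input, among them Nr4a3 and Ier5.

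Other early genes also divided. Of 7 AP-1 genes 1 was higher and 1 lower over IgG RIP, and 5 did not pass, with a median of -0.43 beside -0.07 over all genes. Jund, a constitutive member of the family, had 134 and 121 CPM in CPEB4 RIP, against 31.1 and 50.5 with IgG and 29.0 and 20.5 in input, a log2 fold change of 1.64 over IgG (adjusted p = 0.0174, edgeR) and 2.36 over input (0.00364). Fos, the prototype of the immediate early genes, had 1358 and 1318 CPM in CPEB4 RIP, against 2322 and 2108 with IgG and 2054 and 1707 in input, a change of -0.73 over IgG (adjusted p = 0.0243, edgeR). Fosb, which pairs with JUN proteins, rose over input (0.90, adjusted p = 0.0210, edgeR). Of 40 further early genes 6 were higher, 6 lower and 28 did not pass over IgG, with a median of -0.21. Those that rose included Klf4 (1.04), Maff (1.04), the survival factor Mcl1 (0.89) and the MAP kinase phosphatase Dusp5 (1.40). Those that fell included the phosphatase gene Dusp1 (-1.11), the kinase Plk2 (-1.30), Myc (-1.28) and the stress phosphatase subunit Ppp1r15a (-0.83). Over input 10 were higher and 8 lower, with a median of 0.18; Maff (1.85), Mcl1 (1.04), Plk2 (-2.05) and Dusp1 (-1.69) had the smallest p in each direction.

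The lists of genes that act on or with the EGR, NR4A and IER genes had positive medians against both backgrounds. Of 18 genes for transcription factors and kinases that induce early genes, 2 were higher and 0 lower over IgG RIP, with a median of 0.49, and 4 were higher and 0 lower over input, with a median of 0.48. The ribosomal S6 kinase Rps6ka3, which phosphorylates CREB, had 172 and 180 CPM in CPEB4 RIP, 90.6 and 96.0 with IgG and 58.8 and 74.3 in input, and rose over IgG (0.91, adjusted p = 0.0225, edgeR). Mapk3, which encodes ERK1, rose over IgG as well (1.44, adjusted p = 0.0418), and the CREB coactivator Crtc2 rose over input (1.43, adjusted p = 0.00759). Of 5 cofactor genes (Nab1, Nab2 and the retinoid X receptors, partners of NR4A1 and NR4A2) 0 passed over IgG in edgeR and 3 were higher over input, with medians of 0.95 and 1.30. Nab1, a corepressor of EGR proteins, had 149 and 157 CPM in CPEB4 RIP, 108 and 85.6 with IgG and 57.3 and 61.4 in input, a change of 0.66 over IgG (adjusted p = 0.0574, edgeR) and 1.37 over input (0.00424). Its relative Nab2 rose over input as well (1.88, adjusted p = 0.0169). Of 16 genes for factors that act on the decay or stability of short-lived messages, among them the stabilising protein HuR (Elavl1), 2 were higher and 0 lower over IgG and 8 were higher and 1 lower over input, with medians of 0.14 and 0.66. Zfp36l2, which binds AU-rich elements, rose over IgG (1.25, adjusted p = 0.0233, edgeR) and over input (1.69, 0.00586). Hnrnpd, another such protein, also rose over both (0.79, 0.0330 and 1.93, 0.00184), and Btg2 fell over input (-0.46, 0.0486). Btg2 and Zfp36 are in both this list and that of the further early genes. IgG RIP itself also had positive medians over input, 0.15 for the inducing factors, 0.71 for the cofactors and 0.44 for the decay factors, beside 0.05 over all genes. In IgG RIP against input 0 genes of any of the 5 related lists passed in edgeR, as for all genes. These counts stand beside calls over all genes of 4.79% higher and 3.42% lower over IgG, and of 8.0% and 4.70% over input.

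**Figure D4:**
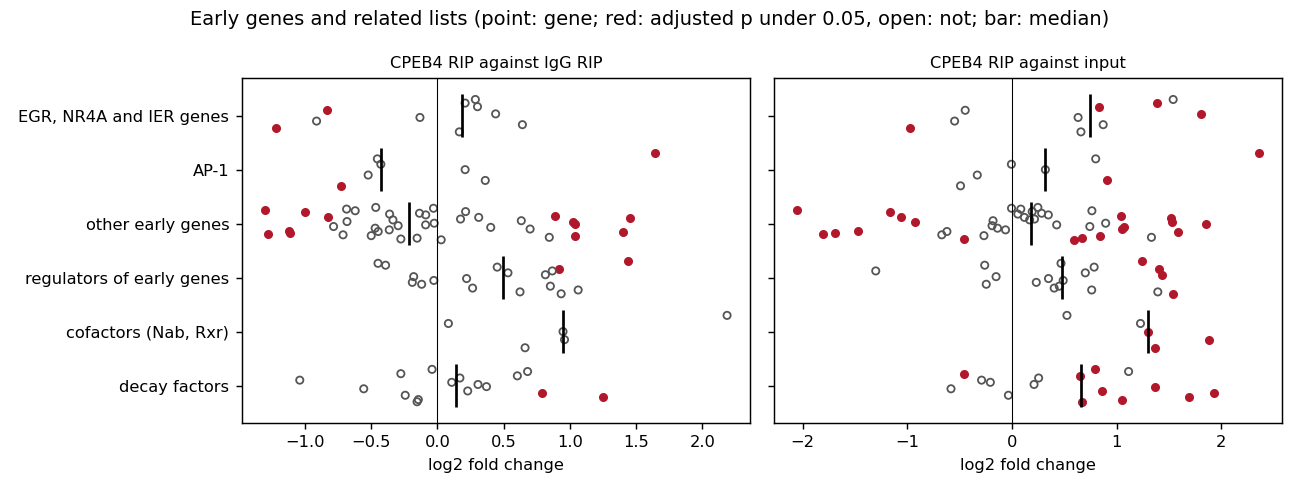
Log2 fold changes of CPEB4 RIP over IgG RIP (left) and over input (right) for the 10 genes and the 5 related lists, with a point for each gene, filled where the adjusted p was under 0.05, and a bar for the median. Over IgG the medians are 0.19 for the EGR, NR4A and IER genes, -0.43 for AP-1 and -0.21 for the further early genes, and each of these lists has points on both sides of 0.

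The genes whose pattern over the 6 libraries was most like that of a leading gene of each family were found by the root mean square difference of centred log2 CPM, among 7077 named genes with a mean of at least 10 CPM. Closest to Egr1 were Grina (0.0586 log2 units), Hspe1 (0.107) and Rela (0.119), where the median gene was at 0.502. Closest to Nr4a1 were Hspa1a (0.0414), Dnm3 (0.106) and Gigyf1 (0.107), where the median was 0.563. Hspa1a had 516 and 430 CPM in CPEB4 RIP, 908 and 884 with IgG and 814 and 519 in input, so that it followed Nr4a1 also in the gap between the input libraries. Closest to Ier2 were Ahsa2 (0.0647), Dnm3 (0.0763) and Nr1d1 (0.0879), where the median was 0.513. These are descriptions over 6 libraries.

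**Figure D5:**
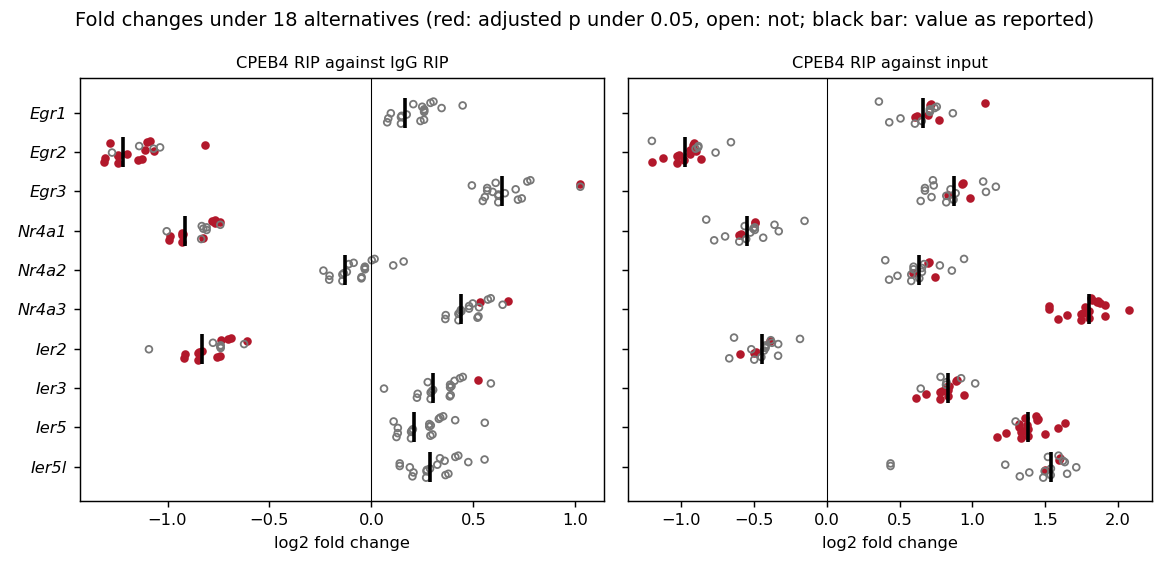
Log2 fold changes of the 10 genes over IgG RIP (left) and over input (right) as reported (black bars) and under 18 alternatives each (points, filled where the adjusted p was under 0.05). Nr4a3 over input stays between 1.53 and 2.08 with every point filled, and over IgG the points of Nr4a2 lie on both sides of 0.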

How the data were processed

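HISAT2, featureCounts and mm10 are named in the submitters' processing notes, while their versions, the annotation, the use of strand and the handling of multi-mapping reads were not given in the sources used here. Whole-number counts, as the authors deposited them, are raw, and the deposited FPKM are scaled per gene length and a library total that is not given. From the counts, edgeR 4.0.16 in R 4.3.3 was run on all 6 libraries, with filterByExpr (minimum count 10, minimum total 15, 18054 genes kept), TMM scaling, group as the only term, 3 residual degrees of freedom, two-sided quasi-likelihood tests and Benjamini-Hochberg adjustment over all genes tested at 0.05. SE was the fold change divided by the square root of F. SD is over 2 libraries. The steps were tested on simulated data. DESeq2 1.42.0, limma 3.58.1, other filters and scalings, a length offset (loess, span 0.3) and leaving out each library were alternatives. Reads carry no molecular identifiers here, so depth bounds counting error only. Positions came from the RefSeq table (GRCm38.p6). All 10 genes are named. Genes of the related lists were named by smallest p, up to 4 per direction over IgG and 2 over input, and the most alike genes by the rule in the text. The genes and lists were chosen with earlier results of these data known.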

Additional observations from a re-analysis of the deposited data

How the results depend on the processing

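Over IgG RIP the count of lower genes was 2 and became 0 with the gene length offset and in limma on log2(FPKM + 1) with no filter, and 1 in limma on log2(FPKM + 1) and on log2(FPKM + 0.1); it was 3, with Nr4a1 added, under 7 settings (scaling by DESeq2 size factors or library size alone, a fit without the low-count filter or with a mean of 20 counts required, DESeq2, only the 4 libraries compared, and the replicate block). With each library left out it ranged from 0 to 3, and the count of higher genes from 0 to 2. Over input the count of higher genes was 3 and became 6 with no low-count filter and 7 with only the 4 libraries compared, 4 in DESeq2 and with the replicate block, and 2 with the length offset and in limma with no filter, and ranged from 1 to 7 with a library left out. The count of lower genes over input was 1 and became 2 with a mean count of at least 20, 3 in the DESeq2 Wald test, 3 with only the 4 libraries compared, and 0 with the length offset and in limma with no filter; it ranged from 0 to 3 with a library left out. In IgG RIP against input the count of higher genes was 0 and became 2 with no low-count filter, 3 in DESeq2 and 2 with the replicate block, and ranged from 0 to 3 with a library left out. The labels do not say that a replicate number marks a shared preparation, and the differences between replicates 1 and 2 correlated across 18054 genes at 0.13, -0.02 and 0.07 between pairs of groups, so the block is given here only; with it Nr4a1 over IgG stood at -0.93 (adjusted p = 0.0209, edgeR) and Egr1 over input at 0.70 (0.0239). Over all genes the block gave 1850 calls over IgG and 2615 over input, against 1482 and 2294 without it. Other settings gave 2892 and 3479 in DESeq2, 973 and 7340 with only the 4 libraries compared, 2428 and 2930 with no filter, 0 and 638 with the length offset, and 318 and 908 in limma with no filter. For single genes, 455 values kept their direction and their side of the threshold, 53 passed only under the alternative, 23 lost the call and 9 turned sign. The 9 were all fits without 1 library: Nr4a2 over IgG (-0.11 to 0.16), and, in IgG RIP against input, Egr2 (-0.12 to 0.44), Egr3 (-0.091 to 0.33) and Nr4a1 (-0.060 to 0.63). Fits without a library leave 1 sample in a group, which is then assumed to vary like the others, and they redo the filter and scaling. Without IgG RIP replicate 1 or 2 the calls over all genes also rose, both over IgG and over input. The fits that left one out hold fewer libraries, and the cause of the rise was not tested.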

Other observations

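The input libraries differed from each other in several early genes. Egr1 in input replicate 2 was 0.605 times its level in replicate 1, Nr4a1 0.626 times, Egr2 0.687 times and Ier2 0.731 times, while Nr4a2 was 1.46 times its level in replicate 1. Among 7406 genes with a mean of at least 10 CPM, 3.70% differed between the input libraries by at least as much as Egr1, and 4.78% by at least as much as Nr4a1. This share was 9.63% for Egr2, 9.57% for Nr4a2 and 16.2% for Ier2. Nr4a3 (ratio 1.0), Ier5 (1.05) and Ier3 (0.907) differed far less. In CPEB4 RIP the same ratios were 0.959 for Egr1, 0.840 for Nr4a1, 0.967 for Egr2 and 0.997 for Ier2. The labels name no difference between the input libraries.

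Egr4, the remaining gene of the EGR family, had 0 and 0 counts in CPEB4 RIP, 1 and 0 with IgG and 4 and 0 in input, and was not tested.

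Summed over each family, EGR genes held 3918 and 3767 CPM in CPEB4 RIP, 3785 and 3272 with IgG and 3143 and 1918 in input. IER genes held 995 and 1036 CPM in CPEB4 RIP, 1598 and 1526 with IgG and 1301 and 981 in input, and NR4A genes 340 and 312 in CPEB4 RIP, 438 and 477 with IgG and 364 and 267 in input. The sums follow the most counted gene of each family and hide the opposite values of the rest.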
